A study of Mus musculus with 4 samples.

Results

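The genes described here encode the oxidative phosphorylation machinery, as measured in alveolar macrophages sorted from mouse lung. They were taken by symbol: those beginning with Nduf (complex I), Sdha to Sdhd (complex II), Uqcr (complex III), Cox4 to Cox8 (complex IV), Atp5 (complex V), and the mitochondrial genome's mt-Nd, mt-Co, mt-Cytb and mt-Atp genes. Of 32285 genes in the count files, 111 matched, and the 100 with a mean of at least 10 CPM (a gene's count scaled to the depth of its library and cell class) over the alveolar macrophages of the 4 libraries were kept. These 100 members comprised 87 nuclear genes (38 of complex I, 4 of complex II, 8 of complex III, 13 of complex IV, 17 of complex V and 7 assembly factors with the prefixes Ndufaf or Sdhaf) and all 13 mitochondrially encoded genes. These groups follow the symbol's prefix alone, so a gene's product need not belong to the complex its prefix names. Just inside the minimum were Sdhaf1 at 10.9 CPM and Cox7a1 at 11.3 CPM, and just outside it was Ndufaf7 at 8.01 CPM. The other 10 genes left out were Ndufaf1, Ndufaf5, Ndufaf6, Sdhaf3, Cox4i2, Cox6a2, Cox7b2, Cox8b, Cox8c and Ndufa4l2.

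Oxidative phosphorylation couples electron transport along the respiratory chain of the inner mitochondrial membrane to ATP synthesis. Complex I (NADH dehydrogenase) and complex II (succinate dehydrogenase) feed electrons to ubiquinone, complex III passes them to cytochrome c, complex IV (cytochrome c oxidase) reduces oxygen, and complex V is the ATP synthase. Complex II is wholly nuclear-encoded, while the other 4 complexes are mosaics of subunits made from nuclear and from mitochondrial DNA, so that both genomes have to supply them. Alveolar macrophages are the resident phagocytes of the air spaces, which take up and break down surfactant lipid.

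The study sorted macrophages from lungs of female mice carrying the MMTV-HER2 transgene, in which the mouse mammary tumour virus promoter drives HER2 chiefly in mammary epithelium, and of wildtype FVB females, and counted transcripts in single cells with a droplet assay that tags the 3′ end. Each genotype was sampled at 16 weeks (the early stage) and at 32 weeks (the late stage, at which the females used had palpable tumours). One library represented each of the 4 groups, so no difference between them has a replicate, and genotype, age, animal and library preparation cannot be told apart. Genotypes were taken from the sample titles, since the strain label names both for every sample, and the number of mice per library and the sorting gate are not given in the sources used here.

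Cells were kept from 1000 unique molecular identifiers (UMIs, one per captured transcript) and 500 genes upward, with a limit of 10% on mitochondrial UMIs. They numbered 5449 in the wildtype library at 16 weeks, 5126 in the HER2 library at 16 weeks, 5129 in the wildtype library at 32 weeks and 6554 in the HER2 library at 32 weeks. Cells in which Chil3, Ear1, Ear2, Fabp1, Lpl and Plet1 together reached 0.4% of UMIs were called AM cells. They numbered 4840, 4428, 4251 and 5741 in the same order, held between 18325300 and 27849827 UMIs per library and had median depths between 3732 and 4755 UMIs. Between 100 and 337 AM cells per library lay within a factor of 2 above that threshold. The label was borne out by genes the gate did not use: in AM cells Siglecf measured 104 to 118 CPM, Car4 128 to 177 CPM and Krt79 529 to 629 CPM, against at most 13.9 CPM in cells defined by C1qa, C1qb and C1qc (C1q cells, 268 to 593 per library). Between 17 and 29 cells per library shared a barcode with another library, and no doublet caller was run. The wildtype library at 32 weeks stood apart from the others: 66.2% of all genes with at least 10 CPM were highest there, its levels varied with transcript length as described later, and ribosomal protein genes made up 8.48% of its AM UMIs, against 10.4% to 10.7% in the other 3 libraries.

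Promoter sequences are given first, because the levels of members with and without the NRF1 motif are compared later. RefSeq promoters on GRCm38.p6, 250 bases before to 50 after each start, were found for 75 of the 87 nuclear members (80 promoters). Both strands were searched for a 10-base palindrome bound by NRF1, a regulator of respiratory chain genes, for CCGGAAG, the ETS core read by GABP, and for an 11-base YY1 motif. The NRF1 letters lay in 7.50% of the members' promoters, in 2.38% of the promoters of all genes with at least 10 CPM in AM cells and in 0.971% of all 32851 promoters. The ETS letters lay in 25%, 20.4% and 8.86% of these sets, and the YY1 letters in 6.25%, 1.93% and 0.633%. All 5 YY1 matches lay between 10 and 45 bases after the start, in Ndufs4, Ndufs6, Ndufs7, Ndufa9 and Ndufaf8. The 5 NRF1 matches that lie before a start follow as 30 bases of the gene's own strand, 5′ to 3′, with the NRF1 letters in capitals; the match of Uqcrc1 lies after its start. A match is a string of letters and not a measured binding site.
Ndufa11, a complex I subunit, chr17:56717692-56717721 (+): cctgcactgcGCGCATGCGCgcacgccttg
Cox6a1, a complex IV subunit, chr5:115349101-115349130 (-): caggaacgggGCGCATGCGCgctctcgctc
Atp5g2, a c-ring subunit of complex V, chr15:102671070-102671099 (-): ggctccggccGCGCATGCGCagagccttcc
Atp5k, the e subunit of complex V, chr5:108434430-108434459 (-): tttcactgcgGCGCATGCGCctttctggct
Ndufaf4, a complex I assembly factor, chr4:24897960-24897989 (+): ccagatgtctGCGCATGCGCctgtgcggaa

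The ETS letters are shown for 4 members on which later paragraphs turn, again in capitals, where CTTCCGG is the same motif on the other strand. Cox6a1 and Atp5k carried both motifs.
Sdhd, a membrane anchor of complex II, chr9:50603877-50603906 (-): ccgtctcctgcCTTCCGGttcacgcttcag
Uqcrh, the hinge subunit of complex III, chr4:116075071-116075100 (-): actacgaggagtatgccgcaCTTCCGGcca
Cox6a1, chr5:115348959-115348988 (-): cgtccccatttccgCTTCCGGcgcgccggt
Atp5e, the epsilon subunit of complex V, chr2:174464185-174464214 (-): tacggccacagCTTCCGGtagccgctcggc

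The nuclear members together made up 1.97% of AM UMIs in the wildtype library at 16 weeks, 1.90% in the HER2 library at 16 weeks, 1.68% in the wildtype library at 32 weeks and 1.86% in the HER2 library at 32 weeks. The 13 mitochondrially encoded members made up 5.38%, 5.15%, 5.61% and 4.81% in the same order. The wildtype library at 32 weeks was thus lowest for the nuclear members and, with this limit on mitochondrial UMIs, highest for the mitochondrial ones. Its ratio of mitochondrial to nuclear UMIs was 3.34 (95% counting interval 3.32 to 3.35), against 2.74, 2.70 and 2.59 in the wildtype library at 16 weeks, the HER2 library at 16 weeks and the HER2 library at 32 weeks. Member by member, 66 of the 87 nuclear genes were lowest in the wildtype library at 32 weeks and 14 were highest there, while among all 7170 genes with at least 10 CPM only 18.1% were lowest and 66.2% were highest in that library. Of the 13 mitochondrial genes, 8 were highest in the wildtype library at 32 weeks and 11 were lowest in the HER2 library at 32 weeks. Mitochondrial sums depend on the 10% limit, which removed between 12.8% and 21.0% of barcodes, and the ratios with a limit of 20% were 3.27, 3.17, 3.74 and 2.96. With that limit the mitochondrial sum of the wildtype library at 32 weeks was no longer above that at 16 weeks (-0.013 on the log2 scale).

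**Figure D1:**
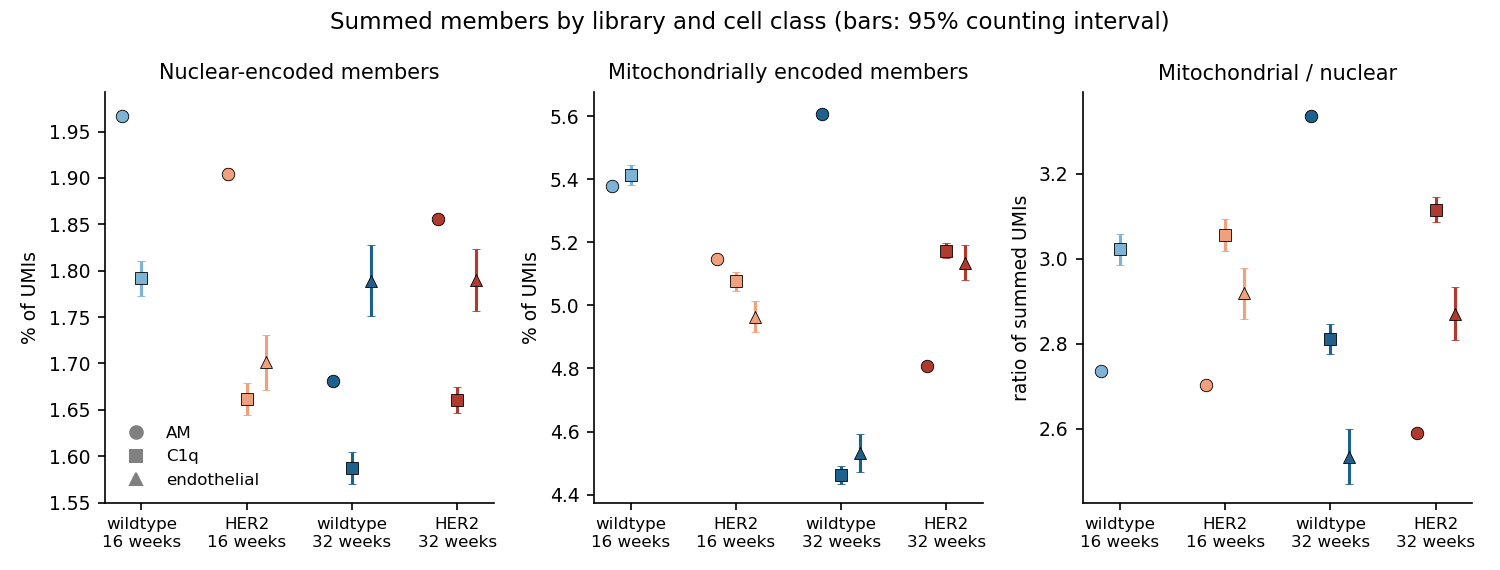
Share of UMIs from the nuclear members (left), from the mitochondrially encoded members (middle) and the ratio of both sums (right) in each library, for AM cells (circles), C1q cells (squares) and endothelial cells (triangles, only in libraries with at least 50 such cells); bars are 95% counting intervals, hidden by the circles, and the axes do not start at 0. Among AM cells the wildtype library at 32 weeks has the lowest nuclear share, 1.68%, and the highest mitochondrial share, 5.61%.

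At 16 weeks the HER2 and wildtype libraries differed little. None of the 100 members had a higher level that exceeded the lower by 25%, the size counted as a difference in all comparisons of single libraries because they allow no test. Among all 7170 genes 0.683% were that much higher and 1.07% that much lower in HER2. The median log2 fold of the nuclear members (on log2 of CPM plus 1) was -0.04, against -0.02 for all genes, and their summed level differed by -0.05. The mitochondrial sum differed by -0.06. Among members of at least 50 CPM, those furthest from 0 by their intervals were Ndufaf8, an assembly factor, at 0.14 and Ndufb9, an accessory subunit of complex I, at -0.15. Cox4i1, the ubiquitous form of complex IV's subunit 4, measured 1022 CPM in wildtype and 1006 CPM in HER2.

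In wildtype mice the nuclear members were lower at 32 weeks than at 16 weeks. By at least that size 31 of 87 were lower and 4 higher, against 7.56% of all genes lower and 24.8% higher. The members' median log2 fold was -0.26, while that of all genes was 0.15. The summed levels were lower in every complex: by -0.19 on the log2 scale for complex I, -0.14 for complex II, -0.31 for complex III, -0.29 for complex IV, -0.18 for complex V and -0.12 for the assembly factors. Counting intervals of complexes III and IV did not overlap those of complexes I and V. With cells with 3 or more cell cycle UMIs left out, 22 members were lower and 5 higher, against 505 and 1809 of all 7170 genes.

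Cox5b, a matrix-side subunit of complex IV (chromosome 1, 36691449 to 36693681, mm10), measured 205 CPM in the wildtype library at 16 weeks, 197 CPM in the HER2 library at 16 weeks, 130 CPM in the wildtype library at 32 weeks and 170 CPM in the HER2 library at 32 weeks. The wildtype library at 32 weeks was 1.58-fold lower than at 16 weeks, a log2 fold of -0.66 with a counting interval from -0.73 to -0.59. Ndufb5, an accessory subunit of complex I's membrane arm, followed the same order, at 163, 157, 108 and 151 CPM. Ndufb11, another membrane arm subunit, encoded on the X chromosome, stood at 154, 147, 103 and 145 CPM. The wildtype library at 32 weeks was the lowest in each of these 3 genes, and the HER2 library at 32 weeks lay near both 16-week libraries for Ndufb5 and Ndufb11 but between them and the wildtype library at 32 weeks for Cox5b. The lowest log2 fold of any member was that of Sdhd, the complex II anchor whose promoter window is printed above, at -0.87, from 46.3, 41.4, 25.3 and 32.7 CPM.

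Against that direction, 4 nuclear members were higher by at least that size in the wildtype library at 32 weeks than at 16 weeks. The gene called Ndufb1-ps in the files (chromosome 12, 101968090 to 101977068), whose locus holds the RefSeq start of Ndufb1 but which the GENCODE annotation lists as noncoding, measured 328, 325, 507 and 307 CPM, a log2 fold of 0.63. Atp5k measured 173, 169, 253 and 177 CPM, a log2 fold of 0.54. Ndufs1, the largest subunit of complex I, which carries several of its iron-sulphur clusters, measured 41.6, 42.2, 59.0 and 42.4 CPM. Uqcrc1, a core subunit of complex III, measured 68.6, 70.0, 87.3 and 74.5 CPM. In all 4 the wildtype library at 32 weeks was the highest and the other 3 libraries were close to one another. The C1q cells of the 2 wildtype libraries gave 0.99 for Atp5k, 0.78 for Ndufb1-ps, 0.58 for Uqcrc1 and -0.06 for Ndufs1, on log2 of CPM plus 1.

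The division ran through complexes. In complex II, Sdha, the flavoprotein that oxidises succinate, was higher at 32 weeks by 0.28 on the log2 scale, while Sdhb, its iron-sulphur partner, went from 71.5 to 52.4 CPM, a log2 difference of -0.45. In complex III, Uqcrc1 stood at 0.35 and Uqcrc2, the other core subunit, at -0.02, while the small subunits Uqcrh and Uqcrb stood at -0.49 and -0.45. In complex V, Atp5b, the catalytic beta subunit, stood at 0.09 and Atp5e, the small epsilon subunit, at -0.51. Among nuclear core subunits of complex I, Ndufs1 stood at 0.50, Ndufs8 at -0.01, Ndufv2 at -0.02, Ndufv1 at -0.13, Ndufs7 at -0.36 and Ndufs3 at -0.45. Subunits of 1 complex therefore differed in direction within a single pair of libraries.

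Members with the NRF1 letters lay toward the higher end. The 6 genes had a median log2 fold of 0.16 between the wildtype libraries, from -0.15 to 0.54, while the 69 matched members without the letters had a median of -0.26. Outside the members, the 157 genes with the letters had a median of 0.18 and the 5596 without them 0.15. Members with and without the ETS letters had medians of -0.26 and -0.24, and those with and without the YY1 letters -0.30 and -0.25. These are descriptions of small sets without a test.

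**Figure D2:**
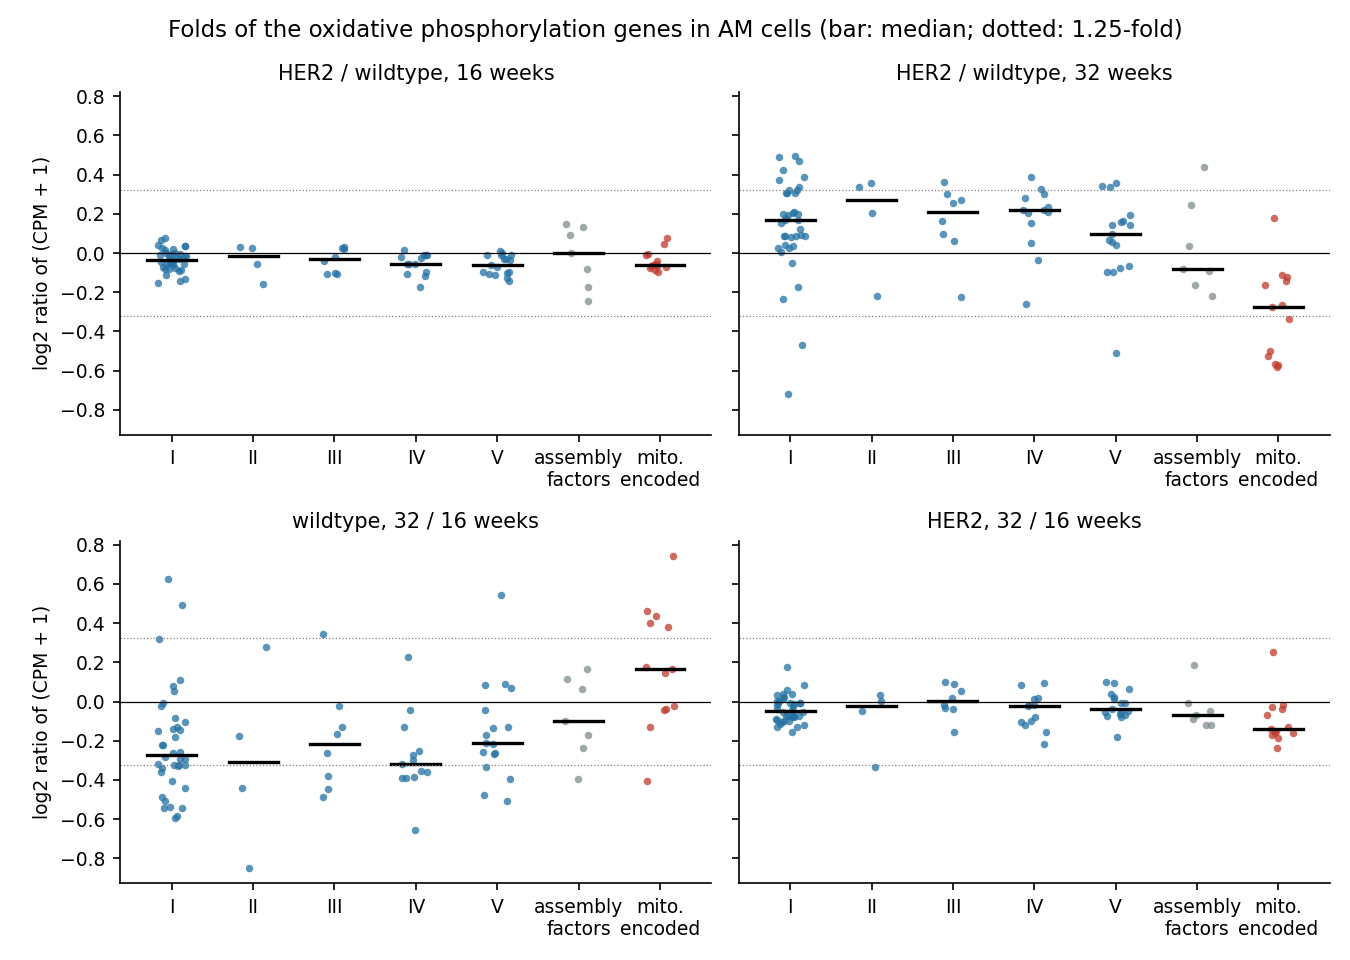
Log2 ratio of CPM plus 1 for each member (points), by complex, in the 4 comparisons of AM cells; the thick bars are medians and the dotted lines mark the size counted. Between the HER2 libraries and at 16 weeks the points crowd around 0, while both comparisons with the wildtype library at 32 weeks spread, with the medians of complexes I to V and the mitochondrial median on opposite sides of 0.

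Transcript length moved with this comparison. The longest annotated transcript of the nuclear members had a median of 1129 bases, against 3451 bases for all genes with at least 10 CPM. In the wildtype comparison, non-member, non-ribosomal genes of 500 to 1000 bases had a median log2 fold of -0.29, close to the -0.31 of the 38 members of that length. At 1000 to 2000 bases the other genes stood at 0.03 and the 25 members at -0.26, and at 2000 to 4000 bases the other genes stood at 0.16 and the 18 members at -0.12. With a smooth trend on length removed, the members' median was -0.08, with 21 lower and 7 higher. Of all 7170 genes 775 were then lower and 724 higher, with a median of 0.002. Atp5k then stood at 0.92, Ndufb1-ps at 0.85 and Ndufb5 at -0.76. Ribosomal protein genes, also short, had a median of -0.39 before and -0.29 after. The part of length, or of what varies with it, in the members' levels was not tested further. In the HER2 libraries the same length classes of members had medians between -0.05 and -0.01 from 16 to 32 weeks.

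**Figure D3:**
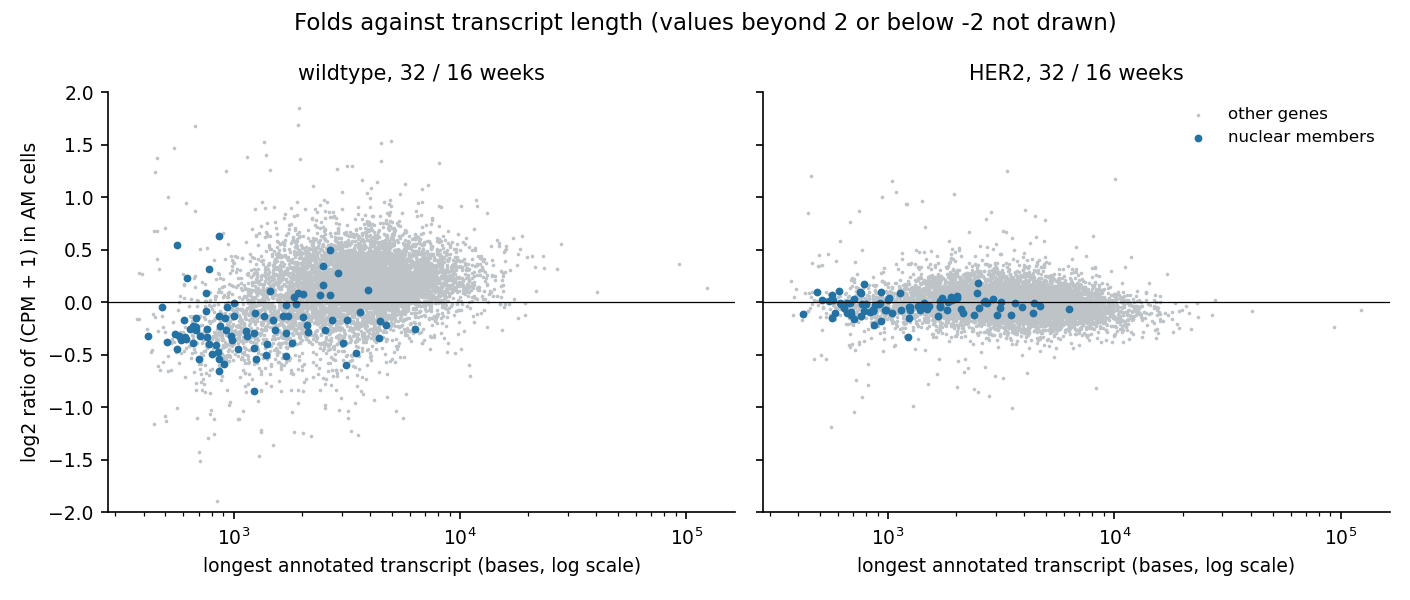
Log2 ratio of CPM plus 1 in AM cells against the longest annotated transcript (log axis) for genes with at least 10 CPM, wildtype libraries on the left and HER2 libraries on the right; nuclear members are blue, other genes grey. In wildtype, genes under 1000 bases lie mostly below 0, those of 1000 to 2000 bases around 0 and longer genes mostly above it. Most members are among the shorter genes. In HER2 no such slope is seen.

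At 32 weeks the HER2 library lay above its wildtype counterpart for 69 of 87 nuclear members and below it for the mitochondrial ones other than mt-Cytb. This comparison shares the wildtype library at 32 weeks with the one above, so it is no second observation of the same pattern. By the size counted 17 of 87 nuclear members were higher and 3 lower, against 4.77% and 26.1% of all genes. The median was 0.16, with all genes at -0.19. Ndufb11 stood at 0.50, Ndufb5 at 0.49 and Ndufa13, a complex I subunit also studied as the cell death gene Grim19, at 0.47, the last from 187 CPM in wildtype to 259 CPM in HER2. Among nuclear members Ndufb1-ps was lowest at -0.72, followed by Atp5k at -0.51 and Ndufs1 at -0.48. With the length trend removed, the median was 0.06, with 13 higher and 5 lower. Of all 7170 genes 506 were then higher and 331 lower. In the authors' deposited table of averages over their own AM cells, 7 nuclear members were higher and 3 lower by this size, against 3.42% of 7157 genes higher and 21.9% lower there.

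The HER2 libraries differed little between ages. Of 87 nuclear members 1, Sdhd, differed by the size counted (41.4 CPM at 16 weeks and 32.7 CPM at 32 weeks), against 1.98% of all genes higher and 1.44% lower. The median was -0.04 and the mitochondrial sum differed by -0.10. Among mitochondrial genes mt-Nd3 stood highest, at 0.25, and mt-Nd4l lowest, at -0.24. When genotype and stage were each fitted across all 4 libraries with edgeR's quasi-likelihood test, with 1 residual degree of freedom per gene, no member passed an adjusted p of 0.05 for either. For genotype 0.00845% of 11836 genes were called higher and 0.0% lower. An unadjusted p under 0.05 was found for 2 of 87 nuclear members, against 461 of all 11836 genes. For stage 0.211% were called higher and 0.169% lower. There 14 of 87 nuclear members and 1 of 13 mitochondrial members had an unadjusted p under 0.05, against 1348 of all 11836 genes. The nearest was Sdhd for stage, at -0.67 ± 0.15 (SE, 4 libraries) with an edgeR adjusted p of 0.126.

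The mitochondrial genes did not move as a block. The mitochondrial genome gives 2 long precursor transcripts that are cut into messenger, ribosomal and transfer RNAs, and 12 of the 13 genes lie on the same strand. Neighbours can overlap, as mt-Atp8 does with mt-Atp6 and mt-Nd4l with mt-Nd4, so their counts are not of wholly separate sequences. mt-Nd3, a small membrane subunit of complex I, measured 890, 834, 1489 and 994 CPM in the wildtype library at 16 weeks, the HER2 library at 16 weeks, the wildtype library at 32 weeks and the HER2 library at 32 weeks. mt-Cytb, the cytochrome b of complex III, measured 3750, 3584, 2834 and 3203 CPM. mt-Co1, the catalytic subunit of complex IV, measured 11157, 10748, 12321 and 9764 CPM. The wildtype library at 32 weeks was thus highest for mt-Nd3 and mt-Co1 and lowest for mt-Cytb.

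Between the wildtype libraries 5 mitochondrial genes were higher by the size counted at 32 weeks (mt-Nd3, mt-Atp8, mt-Nd5, mt-Nd6 and mt-Nd4l) and 1 was lower (mt-Cytb, -0.40), against 24.8% and 7.56% of all genes. The sum differed by 0.060, but by -0.013 with a 20% limit on mitochondrial UMIs and by -0.055 with no limit, so its direction turns with that filter. At 32 weeks 6 of the 13 were lower in HER2 than in wildtype and none higher, against 26.1% and 4.77% of all genes, and the sum differed by -0.22. As shares of the mitochondrial UMIs, mt-Nd3 went from 1.65% to 2.66% between the wildtype libraries, mt-Atp8 from 0.33% to 0.44% and mt-Cytb from 6.97% to 5.05%. The C1q cells of the same libraries, which share no cell with the AM cells, showed mt-Nd3 at 1.08% and 2.07%, mt-Atp8 at 0.13% and 0.30% and mt-Cytb at 8.48% and 6.12%. The log2 changes of share in C1q cells were 1.34 for mt-Nd4l, 1.17 for mt-Atp8 and 0.94 for mt-Nd3, and the -0.47 of mt-Cytb was close to the -0.46 in AM cells. Both cell classes of 1 library pass through the same preparation.

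**Figure D4:**
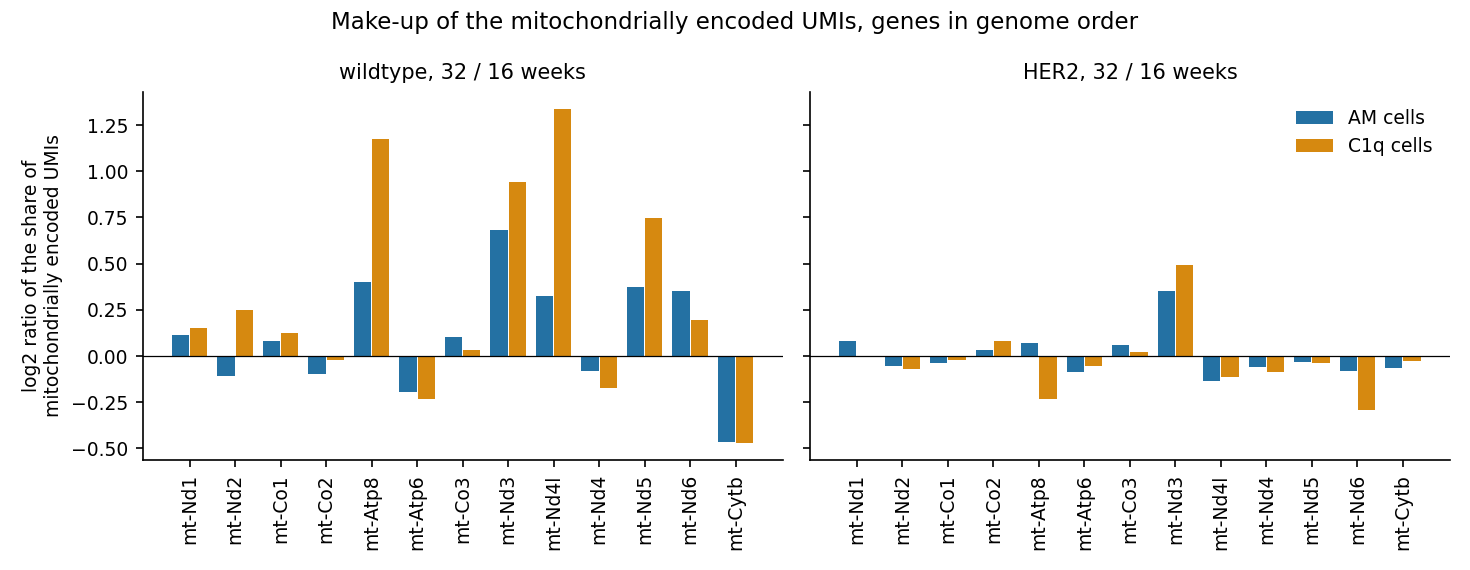
Log2 ratio of each gene's share of the mitochondrially encoded UMIs between 32 and 16 weeks, in AM cells (blue) and C1q cells (orange), genes in the order of the mitochondrial genome; wildtype on the left, HER2 on the right. In wildtype both classes show higher shares of mt-Atp8, mt-Nd3, mt-Nd4l, mt-Nd5 and mt-Nd6 and a lower share of mt-Cytb, while in HER2 mt-Nd3 is the gene furthest above 0 in both classes.

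In C1q cells the nuclear members summed to 1.79%, 1.66%, 1.59% and 1.66% of UMIs in the wildtype library at 16 weeks, the HER2 library at 16 weeks, the wildtype library at 32 weeks and the HER2 library at 32 weeks. The wildtype difference was -0.17 on the log2 scale, with 25 of 86 members lower and 4 higher, against 25.1% of 7914 genes lower and 22.7% higher. The lower share was thus near the background there and the higher share below it. The members' median was -0.19, with 73 of 86 below 0, while that of all genes was -0.02. The wildtype C1q sums held 1954386 and 2007745 UMIs, far fewer than the AM sums, so counting error in single genes was larger. The mitochondrial sums of C1q cells were 5.41%, 5.08%, 4.46% and 5.17%, with the wildtype library at 32 weeks the lowest. At 32 weeks their mitochondrial sum was higher in HER2 by 0.21, and endothelial cells (85 in wildtype and 71 in HER2) showed 0.18, while AM cells showed -0.22. By gene, C1q cells had 3 of 13 higher and 4 lower by the size counted, against 846 and 2229 of 7914 genes. Endothelial cells had 2 higher and 4 lower, against 1966 and 2648 of 8611 genes. The medians were 0.006 and -0.08, so the opposite sign holds for the sums and not for each gene. C1q cells of the wildtype library at 16 weeks carried 1117 CPM of T cell markers, against 37.8 to 166 CPM in the other libraries, and the part of this in these sums was not tested.

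The comparison of AM with C1q cells is replicated over the 4 libraries, because both classes were sorted and counted in each. With edgeR's quasi-likelihood test, library as a block and trimmed-mean (TMM) scaling, 60 of 87 nuclear members were called higher in AM cells and none lower at an adjusted p under 0.05, against 31.3% of 12845 genes higher and 31.0% lower. Of the mitochondrial members 9 of 13 were called higher and none lower. Members were kept by their level in AM cells and the 12845 genes by counts in either class, so these sets were not chosen alike. In C1q cells 86 of the 87 nuclear members also reached a mean of 10 CPM. The called nuclear members were 28 of 38 in complex I, 3 of 4 in complex II, 6 of 8 in complex III, 10 of 13 in complex IV, 12 of 17 in complex V and 1 of 7 assembly factors. The count rests on the scaling: with library totals in place of TMM, which moves the median of all genes by -0.28, 30 nuclear members were higher and 16 lower, and 6 mitochondrial members were higher and 2 lower. Of all 12845 genes 2566 were then higher and 5425 lower. On plain CPM 38 nuclear members were higher in AM cells in all 4 libraries and 19 lower in all 4. Ribosomal protein genes made up 16.0% to 17.8% of UMIs in C1q cells, and their part in the difference between scalings was not tested.

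The furthest apart was Cox6b2 (chromosome 7, 4751792 to 4753094, mm10), an isoform of a complex IV subunit known chiefly from testis. It measured 119 CPM in AM cells and 22.0 CPM in C1q cells of the wildtype library at 16 weeks, 117 and 29.2 CPM in the HER2 library at 16 weeks, 92.5 and 36.9 CPM in the wildtype library at 32 weeks, and 109 and 27.6 CPM in the HER2 library at 32 weeks. The AM value was the higher by 2.51-fold to 5.41-fold. Its edgeR log2 fold was 2.20 ± 0.15 (SE, 4 libraries). Cox5a, the nuclear subunit that pairs with Cox5b in complex IV, had a log2 fold of 1.38, from 639 against 395 CPM in the wildtype library at 16 weeks to 489 against 196 CPM at 32 weeks. Cox5b itself was not called. mt-Atp8 had a log2 fold of 1.32, Ndufb1-ps 1.23, Ndufa3 1.14 and Atp5g3, 1 of 3 genes for the same c-ring protein, 1.06, all with edgeR adjusted p under 0.05. On plain CPM each of these was higher in AM cells in all 4 libraries.

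Some members pointed the other way without being called under TMM. mt-Atp6 measured 7056 against 10406 CPM in the wildtype library at 16 weeks and was lower in AM cells in all 4 libraries on plain CPM. Cox8a, a small complex IV subunit, measured 529 against 660 CPM there, and was likewise lower in 4 of 4 libraries. Their edgeR log2 folds were -0.22 and -0.07.

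**Figure D5:**
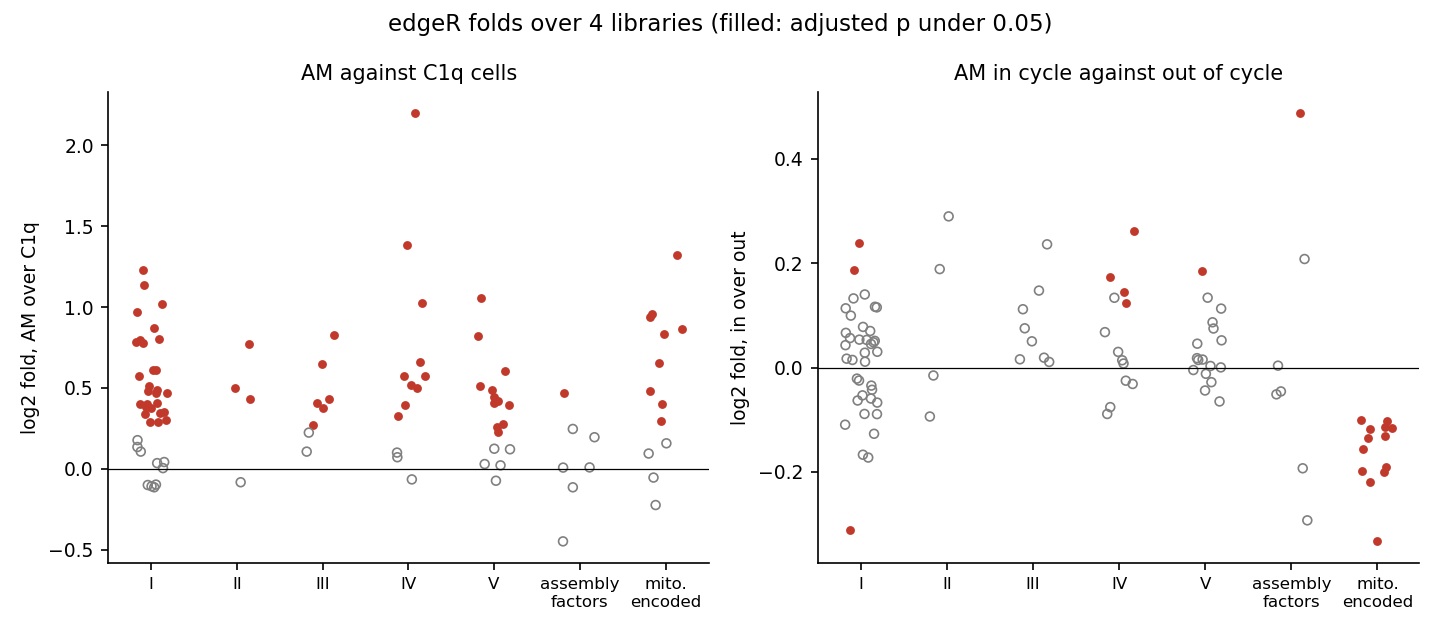
edgeR log2 folds of each member by complex, for AM over C1q cells (left) and for AM cells in cycle over AM cells out of cycle (right); filled points passed an adjusted p under 0.05 and open points did not. On the left the called points all lie above 0, led by Cox6b2 at 2.20; on the right all 13 mitochondrially encoded genes lie between -0.33 and -0.10.

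Isoform use was largely settled in AM cells. Cox4i1 stood between 857 and 1022 CPM and Cox4i2, the isoform known from lung vessels, between 0.17 and 0.42 CPM. Among cells gated by endothelial markers, 1 cell held 22 of the 23 Cox4i2 UMIs in the wildtype library at 16 weeks, 20 of 32 in the HER2 library at 16 weeks and 24 of 54 in the HER2 library at 32 weeks, while the wildtype library at 32 weeks had 2 UMIs in all. Among the striated muscle isoforms, Cox7a1 measured 10.5 to 11.9 CPM, Cox6a2 0.51 to 1.04 CPM and Cox8b at most 1 UMI in any library, beside 296 to 388 CPM of Cox7a2, 282 to 337 CPM of Cox6a1 and 430 to 539 CPM of Cox8a. Ndufa4l2, a hypoxia-induced relative of Ndufa4, gave at most 2 UMIs in AM cells. The 3 c-ring genes were all present, with Atp5g2 at 371 to 425 CPM, Atp5g1 at 233 to 270 CPM and Atp5g3 at 219 to 254 CPM. A UMI of Cox6b2 was found in 31.6% to 35.0% of AM cells, in 10.9% to 15.7% of C1q cells and in 2.0% to 5.6% of endothelial cells, whose median depths were 3732 to 4755, 3122 to 6218 and 4035 to 6966 UMIs.

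The members were also compared between AM cells with and without cell cycle transcripts. Each AM cell was thinned to 2000 UMIs, which left out 171 to 490 shallower cells per library. Cells with 3 or more UMIs of 50 cell cycle genes (552 to 693 per library) were compared with cells with none (1515 to 2215). The nuclear members took 2.03% of UMIs in cycle and 1.86% out of cycle in the wildtype library at 16 weeks, 1.93% and 1.84% in the HER2 library at 16 weeks, 1.74% and 1.63% in the wildtype library at 32 weeks, and 1.94% and 1.75% in the HER2 library at 32 weeks. The mitochondrial members took 5.33% and 5.63%, 5.26% and 5.28%, 5.69% and 5.88%, and 4.70% and 4.96%. The nuclear share was higher in cycle and the mitochondrial share lower in 4 of 4 libraries. The ribosomal RNA-associated gene Gm42418 was lower in cycle in 4 of 4 libraries (16.3% to 20.3% against 18.7% to 22.4%), and its part was not tested.

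In edgeR's test with library as a block, all 13 mitochondrial members fell in cycle at an adjusted p under 0.05, by 0.10 to 0.33 on the log2 scale, against 5.74% of 9387 genes lower. On plain CPM 7 of the 13 were lower in cycle in all 4 libraries, 5 were higher in the HER2 library at 16 weeks alone, and mt-Atp6 was higher there and in the wildtype library at 32 weeks. mt-Nd2 fell by 0.20 ± 0.03 (SE, 4 libraries), from 2223 to 2027 CPM in the wildtype library at 16 weeks, and mt-Co1 fell by 0.16, from 11718 to 11033 CPM there. Of the 87 nuclear members 8 rose and 1 fell, a share near the background of 8.67% of genes higher. Those that rose were Ndufaf2, an assembly factor of complex I, at 0.49, Cox6b2 at 0.26, Ndufb11 at 0.24, Ndufc1 and Atp5o at 0.19, Cox7a2 at 0.17, Cox5a at 0.14 and Cox7c at 0.12. Ndufa9, an accessory subunit of complex I, fell by 0.31. All 9 had the same direction in all 4 libraries. The nuclear count turns on the scaling and the tool: 27 rose and none fell with library totals in place of TMM, and none changed with DESeq2, while the mitochondrial members were lower in 4 of 13 with totals and 10 of 13 with DESeq2. Without the library block none of either kind was called. Of all 9387 genes 1157 rose and 230 fell with totals. With DESeq2 430 of 15736 genes rose and 157 fell, and without the block 456 of 8899 rose and 31 fell. The edgeR folds of all 13 mitochondrial members were below 0 under every one of these settings.

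Within a library, AM cells differed widely in their share. At 2000 UMIs per cell, the nuclear share of the median cell was 1.90%, 1.90%, 1.65% and 1.80% in the wildtype library at 16 weeks, the HER2 library at 16 weeks, the wildtype library at 32 weeks and the HER2 library at 32 weeks. The 10th and 90th percentiles were 1.10% and 2.70% in the first and 1.05% and 2.30% in the wildtype library at 32 weeks. The spread (SD 0.49 to 0.61 percentage points) was above the 0.29 to 0.31 that counting alone gives. Nuclear and mitochondrial shares were weakly and inversely correlated across cells (Pearson's r -0.22 to -0.10, over 3938 to 5396 cells per library). Both are parts of the same 2000 UMIs, and the nuclear share correlated at -0.65 to -0.53 with Gm42418.

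Other pathways are given for the wildtype libraries, where 24.8% of all genes were higher and 7.56% lower at 32 weeks; the shares of tricarboxylic acid cycle, glycolytic and biogenesis genes that were higher lay near that background. Of 77 measured mitochondrial ribosomal protein genes, 22 were lower at 32 weeks by the size counted and 2 higher, with a median of -0.17 and Mrpl33 going from 232 to 142 CPM. Of 16 tricarboxylic acid cycle genes 5 were higher and none lower, with a median of 0.24, and Ogdh, a subunit of the 2-oxoglutarate dehydrogenase, went from 144 to 173 CPM. Of 16 fatty acid oxidation genes 6 were higher and 1 lower, with a median of 0.24 and Hadha, of the trifunctional protein, going from 142 to 162 CPM. Import components were split, with 4 of 28 higher and 6 lower, and Tomm6 going from 375 to 274 CPM. Of 13 glycolytic genes 3 were higher and 2 lower, with Gapdh going from 356 to 152 CPM and Aldoa differing by 0.45 on the log2 scale. With the length trend removed the medians were -0.19, 0.10, 0.09, -0.15 and -0.06 in the order given. Of 17 further assembly factors for complexes III to V, 2 were higher and 3 lower, with the copper chaperone Cox17 at 183 and 166 CPM. Of 19 carriers and electron transfer genes 2 were higher and 1 lower, with the uncoupling protein Ucp2 at 1095 and 974 CPM. Of 12 regulators of mitochondrial biogenesis 3 were higher and none lower, with Yy1 at 98.7 and 94.5 CPM. Lists outside metabolism also differed between these libraries: 14 of 34 cell cycle genes were lower and 1 higher, and 5 of 14 immediate early and stress genes were lower and none higher, with Hspa1b lowest at -3.10. Their part in the members' levels was not tested beyond the count without cycling cells.

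Against C1q cells, 14 of 16 fatty acid oxidation genes were called higher in AM cells by edgeR and 1 lower (median log2 fold 0.96), 11 of 16 tricarboxylic acid cycle genes higher and 1 lower (0.48), and 39 of 78 mitochondrial ribosomal genes higher and 4 lower (0.28). The nuclear members' median was 0.40. Of all 12845 genes 31.3% were called higher and 31.0% lower. These counts rest on TMM scaling, and the lists were not tested with library totals. Hadha and Acadm, enzymes of the beta-oxidation spiral, had log2 folds of 1.05 and 1.02. Ribosomal protein genes lay opposite, with 67 of 85 lower and 6 higher.

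The genes whose levels most resembled the summed nuclear members over 12 library and class values (Pearson's r on log2 CPM, among 3018 genes with at least 50 CPM) were Pdcd5 at 0.94, Timm8b, an import chaperone, at 0.92, Psma4, a proteasome subunit, at 0.91, Tmsb10, a thymosin, at 0.91 and Cmc2 at 0.90. The 12 points share libraries and are not independent.

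Several members share sequence with other loci. In 43 of the 100 the last 300 bases matched another locus of the annotation at 95% identity over at least 90 bases, and in 7 of these the match lay in a gene counted in the files, so that reads may have been split or dropped. Nuclear members with and without such a match had medians of -0.26 and -0.25 between the wildtype libraries. No nuclear member overlapped another gene's exons on the same strand. The mitochondrial members were left out of that check. By their coordinates mt-Atp8 overlaps mt-Atp6, mt-Atp6 overlaps mt-Co3 and mt-Nd4l overlaps mt-Nd4 on the same strand.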

How the data were processed

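The deposited matrices hold raw UMI counts, and the authors kept barcodes with few UMIs in them. The file headers name Cell Ranger 4, and the submitters' processing notes name Cell Ranger 5.0.1 and mm10. The authors also deposited average signal values over their AM cells, per the file headers 1 table per stage, each column summing to about 10000; how cells were chosen and averaged is not stated, and each table was compared only within itself.

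Cells were filtered and classed as the report states, and counts were summed per library and class. Counts past a size, medians, ranges over sets, length-corrected values and pathway genes are on log2(CPM + 1); log2 folds of single members and of sums have no pseudocount. Intervals are exact (95%) and cover counting error only. Replicated comparisons used edgeR 4.0.16 with Benjamini-Hochberg adjustment over all genes tested, tested on simulated data, with DESeq2 1.42.0 as an alternative. Their p-values measure the spread between 4 libraries that also differ in genotype and age. Lengths and loci came from a GENCODE annotation of mm10, promoters from RefSeq. Members, gene lists and motifs were chosen with earlier results of these data known. Named genes were the highest in each complex, the most and least changed, the isoform sets and the highest 2 of each pathway list; core and small subunits, genes with motifs and other members named for their role were added after their values were seen.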

Additional observations from a re-analysis of the deposited data

Results flagged for a closer look

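At 32 weeks the summed mitochondrially encoded members differed between genotypes in opposite directions in the 2 macrophage classes: HER2 over wildtype was -0.22 on the log2 scale in AM cells and 0.21 in C1q cells, each with a counting interval on 1 side of 0. The medians over the 13 genes were -0.28 in AM cells and 0.006 in C1q cells. In C1q cells 3 were higher and 4 lower by the size counted, so the opposite sign is one of the sums. Between the wildtype libraries, 32 over 16 weeks, the sum was 0.060 in AM cells and -0.28 in C1q cells, but the AM value was -0.013 with a 20% limit on mitochondrial UMIs and -0.055 with none, so the opposite sign depends on that filter. The difference between the classes was not tested, since each group has 1 library. In barcodes with 10 to 100 UMIs, which hold free RNA and were used only for the alternative that subtracts it, mitochondrially encoded members made up 10.9% of UMIs in the HER2 library at 16 weeks, against 4.64% in the wildtype library of that age and 2.01% and 2.02% in the wildtype and HER2 libraries at 32 weeks.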

How the results depend on the processing

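Without replicates, depth limits only the counting error: intervals of sums were narrow, while the spread between mice is unknown. No paired analysis by replicate number was possible because the labels number no replicates. Leaving out a library was possible only for the 2 comparisons within libraries. Averages from the authors' tables could not be compared between stages.

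No nuclear member differed by the size counted between genotypes at 16 weeks under any alternative run. At 32 weeks 17 were higher in HER2, 27 with totals that leave out Gm42418, mitochondrial and ribosomal protein genes, 9 with every cell weighing the same, 11 without cycling cells, 7 in the authors' deposited averages and 49 after subtracting the median of all genes. In the same order 342, 529, 252 and 288 of all 7170 genes were higher, 245 of 7157 in the authors' averages and 867 of 7170 after the subtraction. The 31 lower between wildtype libraries became 53 after that subtraction, while all genes lower went from 542 to 1036 of 7170. The 1 lower between HER2 libraries became 0 with a 20% limit or no limit on mitochondrial UMIs, an AM gate at 1%, the reduced totals, at least 50 CPM, a pseudocount of 10 CPM, without cells over 25% Gm42418 and after subtracting the median, and 2 with no minimum. The median subtraction and the Gm42418 limit were chosen after seeing the data. The wildtype mitochondrial sum turned from 0.060 to -0.055 with no mitochondrial limit. The cause of these shifts was not tested.

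Ratios of mitochondrial to nuclear UMIs, in the order wildtype 16, HER2 16, wildtype 32 and HER2 32 weeks, were 3.27, 3.17, 3.74 and 2.96 with a 20% limit, 3.41, 3.31, 3.77 and 3.01 with none, 2.63, 2.62, 3.29 and 2.50 with an AM gate at 1%, 2.71, 2.65, 3.32 and 2.56 with cells of at least 2000 UMIs, and 2.81, 2.78, 3.48 and 2.66 with subunits alone. With free RNA subtracted the last 3 were 2.61, 3.39 and 2.61. The wildtype library at 32 weeks was highest in each.

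AM against C1q cells gave 60 nuclear members higher, 30 with library totals and 52 to 59 without 1 library. Of all 12845 genes 4015 were higher, and 2566 with library totals. Mitochondrial members gave 8 to 9 without 1 library. In cycle, 13 mitochondrial members were lower, 4 with totals, 0 without the library block and 11 to 13 without 1 library. Nuclear members higher in cycle were 8, 0 with DESeq2, 27 with totals, 5 with no filter on low counts, 0 without the block, 13 with a 20% mitochondrial limit, 4 with an AM gate at 1%, and 5 to 9 without 1 library, with 5 without the wildtype library at 16 weeks or the HER2 library at 32 weeks. For stage, 0 members became 1 with totals and 2 with no filter.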
